A study of Homo sapiens with 6 samples.

Results

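The 10 genes IFI6, IFI27, IFI35, IFI44, IFI44L, SAMD9, SAMD9L, XAF1, PLSCR1 and LGALS3BP are transcribed in many cell types after exposure to interferon. They were taken by gene symbol from the deposited count table, where they made up 10 of 60835 distinct symbols. The rule itself uses no measured value, but the genes were chosen with earlier results of these data known. Transcripts were measured by RNA-seq of polyadenylated RNA from PANC-1, a pancreatic carcinoma cell line of epithelioid type. Endogenous SMAD4 had been knocked out in all the cells, which were then transfected to express SMAD4 again. In 3 libraries (R272K) the introduced SMAD4 carried lysine in place of an arginine, and in the other 3 libraries (WT) it was the wild-type protein; all were collected on day 3. By its title the series is about PRMT1, an enzyme that methylates arginine residues, as a modifier of SMAD4, and the comparison sets the substituted protein beside the unsubstituted one. Knockout cells without introduced SMAD4 were not analysed here, and the labels do not give the number of knockout clones. Whether the 3 libraries of a group are separate cultures is also not stated in the labels, and the p-values reflect only the spread between libraries, which may be technical.

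Total counts were 15148435 to 15406781 in the R272K libraries and 14776148 to 17706201 in the WT libraries. SMAD4, the common partner of the receptor-activated SMADs in TGF-β and BMP signalling, stood at 43.3 ± 2.56 CPM with R272K and 88.7 ± 5.13 CPM with WT (SD, n = 3 each). CPM are counts scaled to a common library total, with totals adjusted by edgeR's TMM method. SMAD4 RNA therefore differed in amount between the groups (log2 fold change -1.03, SE 0.0749), besides the substitution in the introduced protein. Effects of the amount and of the substitution cannot be told apart. SMAD4 protein was not measured here, and counts by symbol do not separate introduced SMAD4 RNA from any left of the knocked-out gene. PRMT1 stood at 174.7 ± 6.78 CPM with R272K and 174.5 ± 19.8 CPM with WT. WT replicate 1 stood apart from the other libraries, at 31.3 on the first principal component against -15.6 to 9.56. The 5 markers of the line (KRT8, KRT18, KRT19, KRT7 and VIM) summed to 4627 to 4948 CPM with R272K and 3819 to 4748 CPM with WT, with KRT7 the lowest of them at 2.80 to 5.59 CPM. Summed levels of 8 leukocyte markers were 3.06 to 4.59 CPM with R272K and 2.70 to 4.16 CPM with WT. Those of 3 plasmacytoid dendritic cell markers, with LILRA4 at 0 in every library, were 0.656 to 1.43 CPM with R272K and 0.456 to 1.08 CPM with WT. For 3 endothelial markers the sums were 0.521 to 1.06 CPM with R272K and 0.399 to 0.811 CPM with WT, and for 3 fibroblast markers 0.525 to 1.56 CPM with R272K and 0.203 to 0.917 CPM with WT.

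Type I and type III interferons bind separate receptors that activate the kinases JAK1 and TYK2. These act on transcription factors that, together with IRF9, bind a DNA element, the interferon-stimulated response element (ISRE), in the promoters of responsive genes. The 10 genes act at the far end of this pathway in different compartments. IFI6 and IFI27 encode small hydrophobic membrane proteins, IFI44 and IFI44L related cytoplasmic proteins, SAMD9 and SAMD9L large cytoplasmic proteins that restrict poxviruses, and LGALS3BP a secreted glycoprotein.

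Of the 10 genes, 9 passed the filter on low counts, and IFI6, IFI44, SAMD9 and PLSCR1 were lower with R272K SMAD4 by edgeR's quasi-likelihood test at an adjusted p below 0.05. None was called higher by this test, by DESeq2 or by limma-voom, and the 7 of the 9 with an unadjusted p below that threshold were all lower. Over the whole table, 2270 of the 15911 genes tested had such a p, and 1128 of these were lower. Among all 15911 genes tested, 84 were called lower, or 0.528%, and 109 were called higher, or 0.685%. The 4 called of 9 are set beside these shares as a description, because IFI44 passed the filter only through its WT libraries and IFI44L did not pass it. Every R272K library lay below every WT library for 7 of the 9, against 10.4% of all genes tested. The median log2 fold change (R272K over WT) was -0.53 over the 9 genes and -0.00 over all genes. The 9 genes differed widely among themselves, with log2 fold changes between -1.85 and 0.01. In bulk RNA, fewer cells that express a gene and less RNA per cell cannot be told apart.

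**Figure D1:**
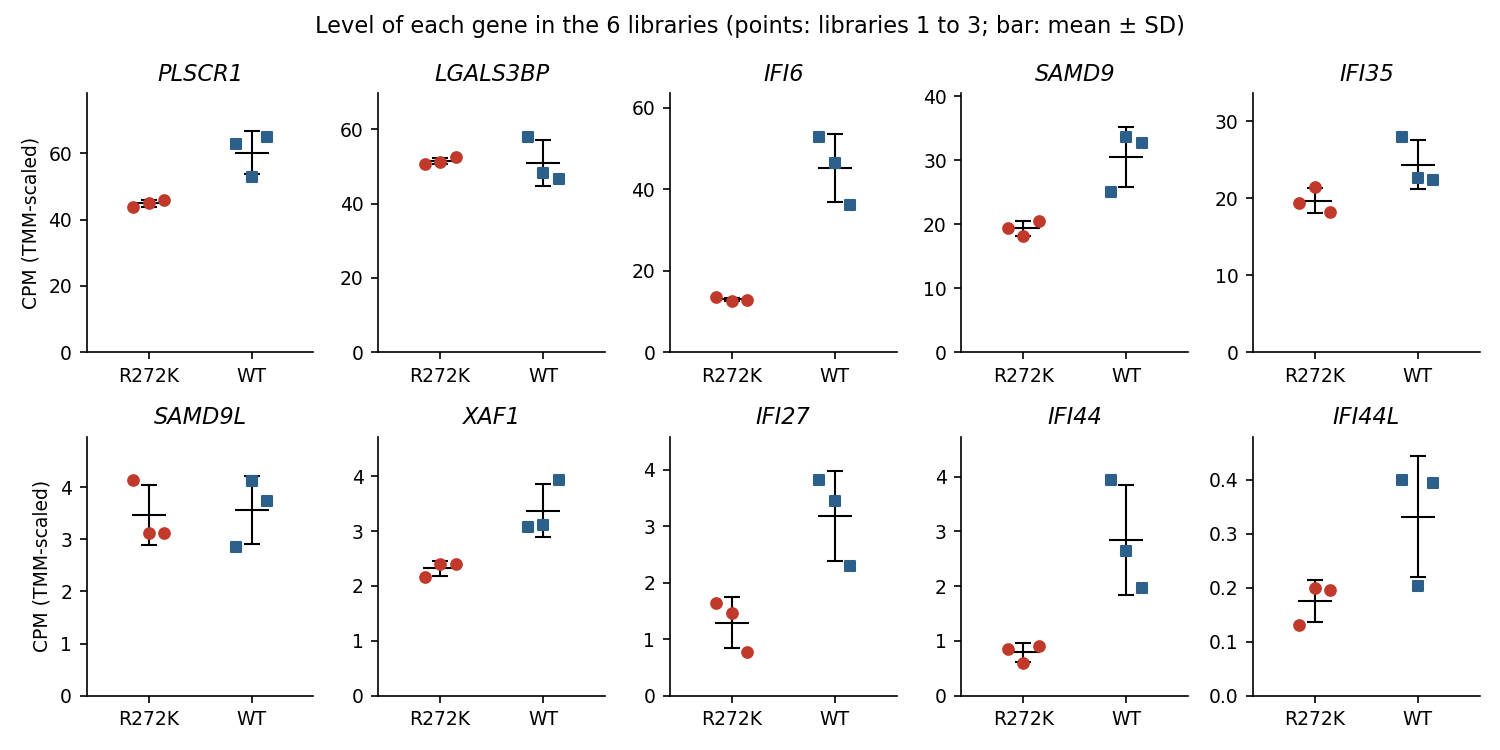
Level of each of the 10 genes in TMM-scaled CPM (vertical axes start at 0 and differ between panels), with 1 point per library, R272K left and WT right, and bars for mean ± SD (n = 3). The R272K libraries lie together below all WT libraries for IFI6 (12.6 to 13.5 against 36.2 to 52.9 CPM), whereas the groups overlap for LGALS3BP and SAMD9L.

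The promoters of the genes are shown because the ISRE is the element through which the pathway is known to act. Windows from 250 bases before to 50 bases after each annotated start were taken from RefSeq (GRCh38.p14), in which all 10 genes were found. The core searched was GAAA, 2 bases of any kind and GAAA, on either strand, and it is printed in capitals below; a match on the opposite strand reads TTTC, 2 bases and TTTC. The stretches come from chr1:27672261-27672363 on the minus strand (IFI6), chr14:94110613-94110665 on the plus strand (IFI27), chr1:78649756-78649795 on the plus strand (IFI44), chr7:93118091-93118130 on the minus strand (SAMD9), chr3:146544662-146544701 on the minus strand (PLSCR1) and chr17:78979957-78979996 on the minus strand (LGALS3BP), each printed 5′ to 3′ in the direction of its gene.
IFI6: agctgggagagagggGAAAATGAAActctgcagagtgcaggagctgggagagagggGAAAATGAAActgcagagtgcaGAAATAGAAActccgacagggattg
IFI27: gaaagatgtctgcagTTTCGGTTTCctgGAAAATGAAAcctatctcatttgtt
IFI44: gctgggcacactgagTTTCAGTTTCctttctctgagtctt
SAMD9: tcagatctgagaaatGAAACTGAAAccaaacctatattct
PLSCR1: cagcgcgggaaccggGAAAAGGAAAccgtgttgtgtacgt
LGALS3BP: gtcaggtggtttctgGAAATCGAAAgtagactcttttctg
The core was found in the windows of 7 of the 10 genes, the 6 printed and IFI44L, against 4.38% of the 27305 genes in the RefSeq table. IFI6 had 3 matches, whose first bases lay 156, 115 and 93 bases before the start, and IFI27 and IFI44L had 2 each. All 4 genes called lower held a match, but so did IFI27 and LGALS3BP, which were not called by edgeR's test, and IFI44L, which was not tested. The windows of IFI35, SAMD9L and XAF1 held none. A longer form, with the core followed by CT, was found for IFI6, IFI27 and IFI44, against 0.322% of all genes, and its matches overlap those of the core. The gamma-activated sequence (GAS) motif, TTC, 3 bases of any kind and GAA, was found for IFI27, IFI35 and PLSCR1, against 9.38% of all genes. The palindrome bound by SMADs, GTCT followed by AGAC, was found for 0 of the 10, against 0.256% of all genes. These are matches of letters and not measurements of binding.

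**Figure D2:**
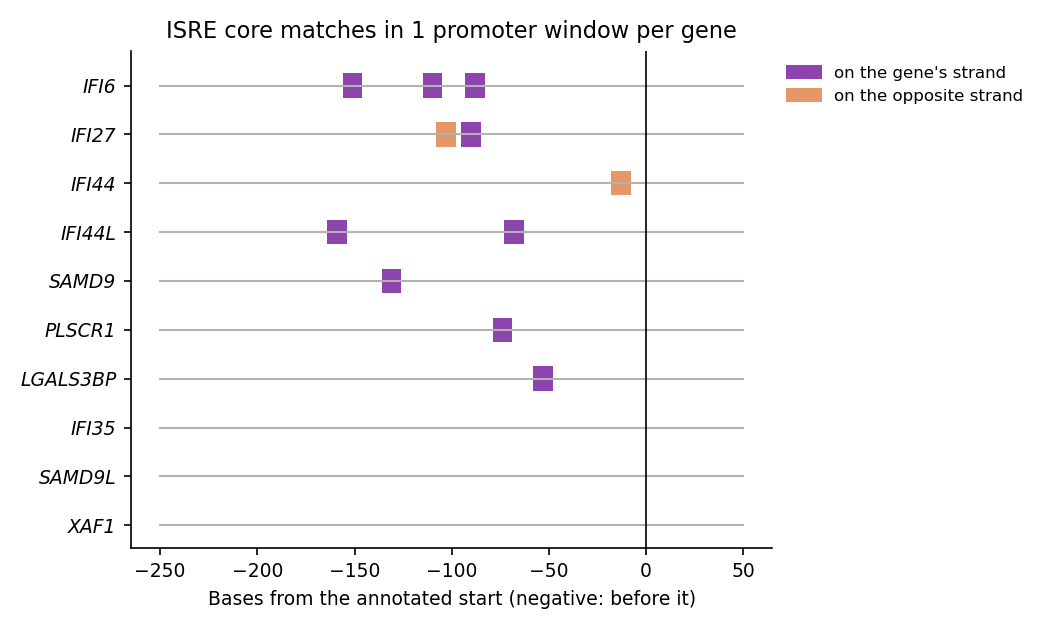
Position of each ISRE core match in 1 promoter window of each gene, in bases from the annotated start, with the start at 0 (matches on the strand of the gene in purple and on the opposite strand in orange). IFI6 has 3 matches between 156 and 84 bases before the start, and the lines of IFI35, SAMD9L and XAF1 are empty.

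IFI6 (ENSG00000126709, chr1:27666064-27672212, minus strand) encodes a membrane protein of the endoplasmic reticulum and mitochondria that counters cell death and restricts flaviviruses. Its level was 13.5, 12.6 and 12.8 CPM in the R272K libraries and 52.9, 46.4 and 36.2 CPM in the WT libraries. The R272K libraries were nearly equal to each other, and the lowest WT library was still well above all of them. The mean was 12.9 ± 0.463 CPM with R272K and 45.1 ± 8.42 CPM with WT (SD, n = 3 each), 71.4% lower by the fitted fold change. Its log2 fold change was -1.80 (SE 0.127, 95% interval -2.08 to -1.53, adjusted p = 4.91e-06), the 7th smallest p of all genes tested. Of the 10 genes it was the only one called in each of the 6 fits that left out a library, with log2 fold changes between -1.94 and -1.67. IFI6 is overlapped on the opposite strand by AL445490.1, which had 23 counts over the R272K libraries and 62 over the WT libraries. The sources used here do not give whether reads were assigned by strand, so reads of the overlapping pair cannot be told apart. IFI6 itself had 590 counts over the R272K libraries and 2165 over the WT libraries.

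IFI27 (ENSG00000165949, chr14:94104836-94116695, plus strand), a relative of IFI6 whose product lies in mitochondrial and nuclear membranes, was far less abundant. It stood at 1.64, 1.46 and 0.782 CPM with R272K and at 3.82, 3.45 and 2.29 CPM with WT. The groups did not overlap, and R272K replicate 3 was the lowest library. The means were 1.30 ± 0.454 CPM with R272K and 3.19 ± 0.796 CPM with WT (SD, n = 3 each). The log2 fold change of -1.30 (SE 0.295, 95% interval -1.94 to -0.66) missed the threshold in edgeR's test with an adjusted p of 0.0533. It was called by DESeq2, and by edgeR without a filter, with library size only, with the replicate number as a block and with the length trend removed. The fits without WT replicate 1 (adjusted p = 0.0263) and without WT replicate 3 (adjusted p = 0.0179) also called it. With limma-voom, RLE scaling, the filter of 1 CPM in 3 libraries or limma on the TPM values it was not called. The call was also absent without R272K replicates 1, 2 or 3 (adjusted p = 0.132, 0.171 and 0.254) and without WT replicate 2 (adjusted p = 0.177).

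IFI44 (ENSG00000137965, chr1:78649796-78664078, plus strand) encodes an antiproliferative protein found with microtubules. It had 13, 9 and 14 counts in the R272K libraries and 69, 39 and 30 counts in the WT libraries, which is 0.853, 0.599 and 0.912 CPM with R272K and 3.93, 2.64 and 1.97 CPM with WT. The groups did not overlap, while the WT libraries were spread widely, with WT replicate 1 at the top. Its log2 fold change was the most negative of the 9 at -1.85, with a wide interval (SE 0.329, 95% interval -2.56 to -1.14, adjusted p = 0.0145). The call was lost without any one of the R272K libraries, at adjusted p = 0.0831, 0.103 and 0.0916. IFI44L (ENSG00000137959, chr1:78619902-78646145, plus strand), its paralogue 3651 bases upstream, was barely detected, with 2, 3 and 3 counts in R272K libraries and 7, 3 and 6 counts in WT libraries. It was not tested at this depth, and without the filter its log2 fold change was -0.90 (adjusted p = 0.714).

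SAMD9 and SAMD9L lie side by side on chromosome 7, 12033 bases apart and on the minus strand, and encode growth-suppressing proteins of similar sequence. SAMD9 (ENSG00000205413, chr7:93099513-93118023) stood at 19.4, 18.2 and 20.5 CPM with R272K and at 25.1, 33.7 and 32.6 CPM with WT. All R272K libraries were lower than all WT libraries, of which WT replicate 1 was the lowest. The means of 19.4 ± 1.18 CPM with R272K and 30.5 ± 4.68 CPM with WT (SD, n = 3 each) gave a difference of -0.65 in log2 (SE 0.113, 95% interval -0.89 to -0.41, adjusted p = 0.0128). It was not called without WT replicate 2 (adjusted p = 0.0790), without R272K replicates 1, 2 or 3 (adjusted p = 0.0921, 0.103 and 0.0846), or with limma on the TPM values (adjusted p = 0.156 and 0.154 with pseudocounts of 1 and 0.1). SAMD9L (ENSG00000177409, chr7:93130056-93148385) had 4.13, 3.13 and 3.13 CPM with R272K and 2.85, 4.12 and 3.73 CPM with WT. Its groups overlapped throughout, and the log2 fold change of -0.04 (SE 0.206, adjusted p = 0.957) had a 95% interval of -0.48 to 0.41.

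Whether the paralogues differed in their response was asked from the log2 ratio of their TPM levels within each library, with 0.5 count added. TPM is a length-scaled abundance, so it allows levels to be compared between genes. The ratio of SAMD9L to SAMD9 was -2.29, -2.60 and -2.77 with R272K and -3.20, -3.09 and -3.19 with WT. Each R272K library was above each WT library, with a mean difference of 0.60. An exact permutation test, two-sided, gave p = 0.1, the smallest that 3 against 3 libraries allow, and 0.3 after adjustment over 3 pairs. The ratio of IFI44 to IFI44L averaged 3.77 ± 0.501 with R272K and 4.77 ± 0.664 with WT (SD, n = 3 each; exact permutation p = 0.2), and the ratio of IFI6 to IFI27 averaged 4.77 ± 0.539 with R272K and 5.25 ± 0.118 with WT (exact permutation p = 0.4). In both pairs the libraries of the groups overlapped, and IFI44L had only 2 to 7 counts per library. Because p could not fall below 0.1, the test could not establish a difference in response for any of the 3 pairs, overlapping or not.

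PLSCR1 (ENSG00000188313, chr3:146515180-146544856, minus strand) encodes a phospholipid scramblase that also takes part in antiviral defence. It measured 43.8, 44.9 and 45.9 CPM with R272K and 62.8, 52.9 and 65.1 CPM with WT. The R272K libraries lay within a narrow band below the lowest WT library, WT replicate 2. The means of 44.9 ± 1.01 CPM with R272K and 60.2 ± 6.49 CPM with WT (SD, n = 3 each) gave a log2 fold change of -0.43 (SE 0.084, 95% interval -0.61 to -0.24, adjusted p = 0.0261), the smallest of the 4 called differences. Without R272K replicates 1, 2 or 3 it was not called (adjusted p = 0.183, 0.164 and 0.160), nor with limma on TPM (adjusted p = 0.0918 and 0.0906 with pseudocounts of 1 and 0.1).

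IFI35, XAF1 and LGALS3BP, like SAMD9L, were not called in any of the alternative fits run. IFI35 (ENSG00000068079, chr17:43006740-43014456, plus strand), whose product binds NMI, stood at 19.4, 21.4 and 18.2 CPM with R272K and 28.0, 22.6 and 22.4 CPM with WT. The groups did not overlap, with R272K replicate 2 close to WT replicates 2 and 3, and the log2 fold change was -0.31 (SE 0.108, adjusted p = 0.210), or -0.19 without WT replicate 1. XAF1 (ENSG00000132530, chr17:6755447-6775647, plus strand), a tumour suppressor that antagonises the caspase inhibitor XIAP, stood at 2.17, 2.40 and 2.41 CPM with R272K and 3.08, 3.11 and 3.93 CPM with WT. XAF1 overlaps the antisense gene PRAL, which had 0 counts over the R272K libraries and 4 over the WT libraries. The groups of XAF1 did not overlap, but the log2 fold change of -0.53 (SE 0.202, 95% interval -0.97 to -0.10) had an adjusted p of 0.248. LGALS3BP (ENSG00000108679, chr17:78971238-78979947, minus strand), which encodes a secreted binding partner of galectins, stood at 50.7, 51.3 and 52.5 CPM with R272K and 58.1, 48.1 and 46.6 CPM with WT. WT replicate 1 was above and the other WT libraries below every R272K library, and the log2 fold change was 0.01 (SE 0.0865, 95% interval -0.17 to 0.20, adjusted p = 0.961).

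**Figure D3:**
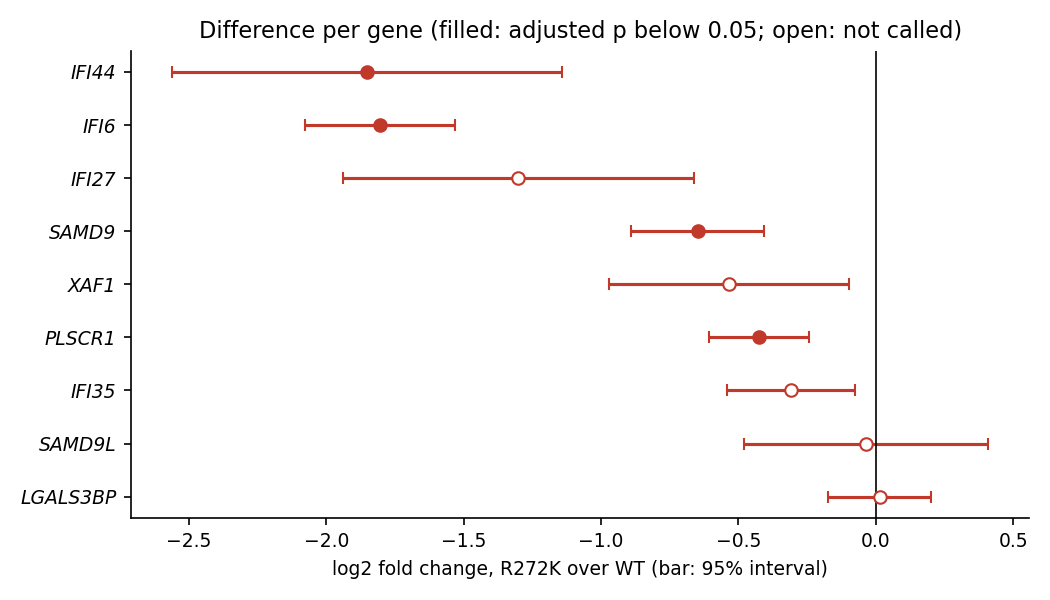
Log2 fold change (R272K over WT) of the 9 tested genes with its 95% interval, on a linear axis (filled points are called at an adjusted p below 0.05, open points are not). IFI44 and IFI6 lie lowest, at -1.85 and -1.80, and the intervals of SAMD9L and LGALS3BP cross 0.

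**Figure D4:**
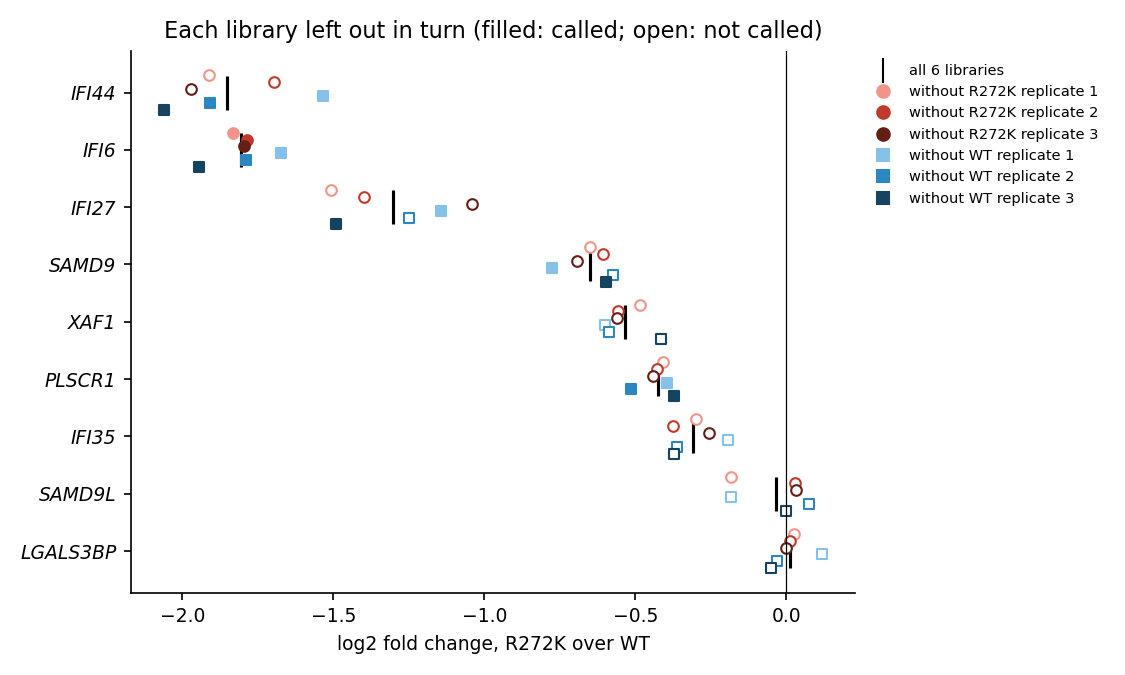
Log2 fold change (R272K over WT) of each tested gene when each of the 6 libraries is left out in turn, with circles for R272K libraries and squares for WT libraries left out, and a black line for all 6. IFI6 stays filled in all 6 fits, whereas IFI44, SAMD9 and PLSCR1 are open whenever an R272K library is left out.

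When WT replicate 1 was left out, 5 of the 9 genes were called lower, IFI27 being added, while the genes called lower in the whole table numbered 395, against 84 with all libraries. Leaving out WT replicate 2 gave 3 of the 9, IFI6, IFI44 and PLSCR1, with 44 in the whole table, and leaving out WT replicate 3 gave 5, with 155 in the whole table. With any R272K library left out, IFI6 alone of the 9 was called, and between 55 and 60 genes of the whole table were called in either direction. WT replicate 1 was the highest WT library for 6 of the 10 genes and the lowest for 3, XAF1, SAMD9 and SAMD9L. Its CPM was 1.28 times the mean of the other WT libraries for IFI6 and 0.757 times for SAMD9; relative to the median gene, the lengths by which the authors divided to make TPM were 0.460 for IFI6 and 3.44 for SAMD9. Over all genes, its log ratio to the other libraries of its group had a Spearman correlation of -0.41 with gene length (across genes, which are not independent replicates). The same measure lay between -0.114 and 0.0848 in the R272K libraries. It was 0.231 and 0.315 in WT replicates 2 and 3, for which WT replicate 1 is part of the reference. With each library's trend with length removed, 5 of the 9 genes were called lower, IFI6, IFI27, IFI44, SAMD9 and PLSCR1, and so were 295 in the whole table.

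In deposited TPM, which allows levels to be ordered, IFI6 was the most abundant of the 10 genes with WT and the fourth with R272K. It stood at 46.4, 43.1 and 44.7 TPM with R272K and at 169.9, 161 and 128 TPM with WT. The mean level of LGALS3BP was 73.7 TPM with R272K and 71.6 TPM with WT, and that of PLSCR1 was 71.5 TPM with R272K and 94.7 TPM with WT. IFI35 averaged 50.3 TPM with R272K and 61.2 TPM with WT, and SAMD9 averaged 8.97 TPM with R272K and 14.0 TPM with WT. The means of the others were below 6 TPM in either group. Within the order, LGALS3BP and PLSCR1 overlapped in the R272K libraries, as did XAF1, IFI27, SAMD9L and IFI44 in part. In the WT libraries IFI44 overlapped IFI27, and IFI27 overlapped XAF1. The 4 abundant genes IFI6, IFI35, PLSCR1 and LGALS3BP held 93.5%, 94.2% and 93.8% of the summed TPM of the 10 in the R272K libraries and 93.9%, 92.6% and 92.8% in the WT libraries. IFI6 alone held 18.2%, 16.8% and 17.3% of it with R272K and 39.2%, 40.0% and 32.9% with WT. The summed TPM was 254, 256 and 258 with R272K and 433, 403 and 390 with WT, so no R272K library reached the lowest WT library.

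**Figure D5:**
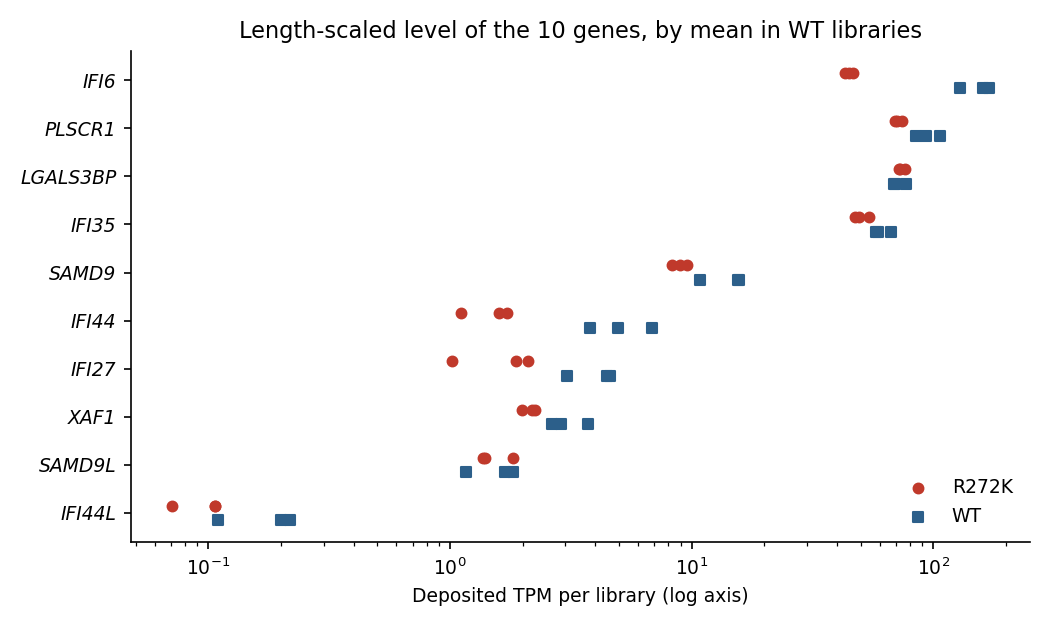
Deposited TPM of the 10 genes in each library on a logarithmic axis, ordered by their mean in WT libraries (R272K circles above WT squares). IFI6 is highest of the 10 in WT libraries at 128 to 169.9 TPM, and lies below LGALS3BP, PLSCR1 and IFI35 in R272K libraries at 43.1 to 46.4 TPM.

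Among the genes upstream of these 10, the 3 tested interferon genes were lower with R272K. None of the listed receptors and kinases was called in edgeR's test of all 6 libraries. Of the 22 genes of the interferon pathway list, 21 were tested. By edgeR 5 were called lower, among them IFNL1, IFNL2, IFNL3 and IRF7, against 0.528% of all genes tested. By edgeR, DESeq2 or limma-voom 0 were called higher, and 16 were not called by edgeR. Of these 16, JAK1, TYK2, IFNAR1 and IFNAR2 had an unadjusted p below 0.05 with a positive fold change. Of all 15911 genes tested, 2270 had such a p in either direction. USP18, which encodes an inhibitor of interferon receptor signalling, had the smallest p of the 16 and a negative fold change (log2 fold change -0.48, adjusted p = 0.0724). USP18 averaged 8.70 ± 0.160 CPM with R272K and 12.1 ± 1.18 CPM with WT (SD, n = 3 each), without overlap, and was called lower without a filter, with the length trend removed and without WT replicate 1. The list had a median log2 fold change of 0.03. IFNL1 (a type III interferon) averaged 7.31 ± 0.704 CPM with R272K and 26.2 ± 3.74 CPM with WT (SD, n = 3 each; log2 fold change -1.84), and its close copies IFNL2 and IFNL3, which could share reads, had log2 fold changes of -1.78 and -1.91. The type I interferon gene IFNB1 had 4 counts over the R272K libraries and 24 over the WT libraries and was not tested. IRF7, a transcription factor that induces interferon genes, averaged 14.97 ± 2.04 CPM with R272K and 21.8 ± 2.57 CPM with WT (log2 fold change -0.54, adjusted p = 0.0487). The call of IRF7 was lost with limma-voom, with the filter of 1 CPM in 3 libraries, with limma on TPM, without any one R272K library and without WT replicate 2, whereas IFNL1, IFNL2 and IFNL3 were called in each of these fits. JAK1 (0.21, adjusted p = 0.213), IFNAR1 (0.16, adjusted p = 0.262), IFNGR2 (0.07, adjusted p = 0.689) and SOCS3 (-0.05, adjusted p = 0.771) were the most abundant uncalled genes of the list, given here with their log2 fold change in edgeR's test. TYK2, IFNAR2, USP18, STAT2 and IRF9 were named after their values were seen, and STAT2 and IRF9 had log2 fold changes of -0.04 (adjusted p = 0.828) and 0.03 (adjusted p = 0.951).

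Of 43 tested genes in a list of other interferon-induced genes, 14 were called lower by edgeR, against 0.528% of all genes tested. By edgeR, DESeq2 or limma-voom 0 were called higher. In edgeR's test 29 were not called, and the median log2 fold change was -0.33. An unadjusted p below 0.05 in that test was found for 27 of the 43, of which 26 were lower. Over the whole table, 2270 of the 15911 genes tested had such a p, and 1128 of these were lower. LAMP3, also named after its values were seen, was the 1 gene of this list that was higher at that threshold (log2 fold change 0.31, adjusted p = 0.167). Without WT replicate 1 the list had 25 genes called lower, in a fit that called 395 lower in the whole table. IFIT2, IFIT1 and IFIT3, inhibitors of viral RNA translation, had the smallest p, with log2 fold changes of -1.66, -1.62 and -1.27. A list of 15 relatives held paralogues and named partners of the 10 genes. It also held IFI16 and IFI30, which share only the IFI name and are in the list of other interferon-induced genes too. Of the 15, 11 were tested and 0 were called by edgeR. An unadjusted p below 0.05 was found for 2, IFI16 (log2 fold change -0.39, adjusted p = 0.185) and BIRC3 (0.25, adjusted p = 0.0572). Of all 15911 genes tested, 2270 had such a p. BIRC3 was called higher by DESeq2, by limma-voom and by edgeR without WT replicate 1. BIRC3, an inhibitor of apoptosis like XIAP, averaged 805 CPM with R272K and 678 CPM with WT. For IFI27L1 and IFI27L2, the neighbours of IFI27 and relatives of IFI6, the log2 fold changes were 0.14 and -0.15. NMI, the partner of IFI35, had 0.00 (30.7 CPM in both groups), and XIAP, the target of XAF1, had 0.04. PLSCR4, the nearest tested gene on one side of PLSCR1 at 264001 bases, had 0.34 at 2.06 CPM with R272K and 1.63 CPM with WT. LGALS3, LGALS1, CD9 and BIRC2 had log2 fold changes of -0.04, -0.04, -0.12 and 0.08.

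The nearest tested genes on the same chromosome did not move with the 10 genes beyond the threshold. Some lay far away, such as ARID3BP1, 2837716 bases from IFI44, and UBQLN4P1, 2441012 bases from PLSCR1. Of the 16 nearest tested genes on either side that were not themselves among the 10, 0 were called by edgeR, DESeq2 or limma-voom. AL445490.1 and VAT1 had an unadjusted p below 0.05, as had 2270 of all 15911 genes tested. The log2 fold changes of the 16 lay between -1.36 and 0.34, with a median of 0.02, and AL445490.1, which overlaps IFI6, was the lowest (adjusted p = 0.182).

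The genes whose profile over the 6 libraries lay closest to the mean profile of the 9 tested genes were found by the root mean square difference of centred log2 CPM, among genes with a mean of at least 1 CPM. They were IGFBP6, a binding protein of insulin-like growth factors (difference 0.0704, log2 fold change -0.72), NPTX1 (0.0837, -0.62), the histone gene H2BC8 (0.0857, -0.76), HMOX1, which encodes haem oxygenase (0.0890, -0.61), and SLC16A14 (0.0893, -0.61). The 9 genes themselves lay at 0.197 (SAMD9) to 0.541 (IFI44) from their mean profile. The 5 were picked as the closest genes of the whole table, so their smaller differences follow from that choice.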

How the data were processed

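RNA-seq libraries of 3 R272K and 3 WT samples, collected on day 3, were compared. The authors deposited unnormalized read counts for each symbol, and TPM, a signal scaled by gene length, made from the same counts. The submitters' processing notes name HTSeq 0.10.0, HISAT2 2.1.0, fastp 0.23.0 and SAMtools, and the build GRCh38, without settings. Both tables held 62710 lines for 60835 symbols, and each symbol was used once, because 453 symbols had repeated lines.

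Genes were kept by edgeR's filter (minimum count 10, minimum total 15), and TMM scaling and the quasi-likelihood test of edgeR, robust and two-sided, were applied to all 6 libraries with no covariate. Benjamini-Hochberg adjustment ran over 15911 genes, with calls at an adjusted p below 0.05. SE is the absolute log2 fold change over the root of the F statistic. The 10 genes, the lists and the alternatives were chosen with earlier results of these data known. Named from the lists were every called pathway gene and the 4 most abundant uncalled ones, 3 other interferon-induced genes by p, every tested relative, and the 5 nearest profiles; 1 listed alias was not found, and 1 gene that this rule takes is not reported here. Alternatives were RLE scaling, library size only, other filters (none, or 1 CPM in 3 libraries), DESeq2, limma-voom, a replicate block, removal of the length trend, limma on log2(TPM + 1) or log2(TPM + 0.1), and each library left out in turn. Replicates differed by more than sampling noise in every pair (chi-square over its degrees of freedom at least 1.84). The scripts were tested on simulated data. Tools were edgeR 4.0.16, DESeq2 1.42.0 and limma 3.58.1 in R 4.3.3, and scipy 1.17.1, matplotlib 3.10.9, pandas 2.3.3 and numpy 2.4.6 in Python 3.11.15. Depth sets the precision, and genes with few counts, such as IFI44L, have the widest errors.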

Additional observations from a re-analysis of the deposited data

How the results depend on the processing

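No alternative turned the direction of IFI6, IFI27, IFI35, IFI44, SAMD9, XAF1 or PLSCR1. The 4 genes called lower became 2 with limma on log2(TPM + 1) and 2 on log2(TPM + 0.1), and 1 to 5 with a library left out. All genes called lower (84) became 247 without a filter, 295 with the length trend removed, 54 and 52 on the TPM scales with pseudocounts of 1 and 0.1, and 33 to 395 with a library left out (395 without WT replicate 1). All genes called higher (109) became 227, 312, 46, 44 and 21 to 480 under the same settings. The pathway genes called lower (5) became 4 with limma-voom and with the filter of 1 CPM in 3 libraries, 3 on either TPM scale and 3 to 6 with a library left out, and those called higher (0) were 0 to 1, JAK1 without WT replicate 1. The other interferon-induced genes called lower (14) became 23 with the length trend removed, 9 on log2(TPM + 0.1) and 10 to 25 with a library left out, and 21 without a filter. Relatives called higher (0) were 1, BIRC3, without a filter, with the length trend removed, with DESeq2 and with limma-voom, and 0 to 1 with a library left out (1 without WT replicate 1). The log2 fold change of SAMD9L ranged from -0.18 to 0.0770 with a library left out, positive at 0.03 without R272K replicates 2 or 3 and 0.0770 without WT replicate 2. That of LGALS3BP ranged from -0.0497 to 0.12, and was -0.000883 without R272K replicate 3, -0.03 without WT replicate 2 and -0.0497 without WT replicate 3. The differences in the 3 pair ratios kept their sign under each alternative run for them. The longer ISRE form was found for 3 genes, the core for 7. Except where fewer genes or samples entered, the cause was not tested.

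Samples with the same replicate number did not deviate together (correlations of -0.065, -0.007 and -0.012). With 3 libraries a group, this does not settle whether the numbers pair the samples. With the replicate number as a block, 5 of the 9 genes were called lower, IFI27 being added, and 262 genes in all (138 higher, 124 lower).

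Counting error is large for IFI44, IFI27 and IFI44L, which had few counts, and 3 libraries a group allow no smaller exact permutation p than 0.1.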
